A study of Mus musculus with 6 samples.

Results

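The genes described here encode the protein subunits of the 5 complexes of the mitochondrial respiratory chain that are written in the nuclear genome. They were taken by symbol alone: names that begin with Nduf (complex I), Sdh (complex II), Uqcr or Cyc1 (complex III), Cox4 to Cox8 (complex IV) and Atp5 (complex V), without assembly factors and pseudogenes, in the gene symbols of the authors' table, and with at least 10 counts in each of the 6 libraries. The rule found 80 genes of the 15845 in the count table: 35 of complex I, 4 of complex II, 9 of complex III, 15 of complex IV and 17 of complex V. All 80 that matched by name also met the count minimum and entered the test. The members nearest to the minimum were Cox7a1, with 12 counts in its lowest library, Cox6a2 with 33 and Cox4i2 with 51. Just outside was Ndufs5, an accessory subunit of complex I, listed at 0, 1 and 0 counts with vehicle and 2, 4 and 2 with TP-3654, and without a row in the authors' table. Subunits with other names fall outside it, among them Ndufab1 of complex I, at 1193, 1170 and 1029 counts with vehicle and 1201, 1205 and 1396 with TP-3654.

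The libraries are RNA-seq of LSK cells, the bone marrow fraction that lacks mature lineage markers and carries Sca-1 and c-Kit, where the blood stem cells and early progenitors are found. All mice were C57BL/6 with the genotype Mx1Cre; Jak2VF/VF, so both groups carry the same activated Jak2 allele, the driver of most myeloproliferative neoplasms, and the same interferon-inducible recombinase. One group received PBS as vehicle and the other TP-3654, an inhibitor of the PIM kinases that act downstream of JAK2, for 6 weeks at 150 mg/kg/day. There are 3 libraries per group, which the design text calls biological replicates, and p-values measure only how these libraries vary. Neither the ages nor the sex of the mice are stated, and no group of untreated mice without the Jak2 allele enters the comparison, which asks how the inhibitor alters expression in these cells.

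The respiratory chain sits in the inner mitochondrial membrane. Complexes I and II pass electrons from NADH and succinate to coenzyme Q, complex III passes them on to cytochrome c, and complex IV hands them to oxygen, while complexes I, III and IV pump protons that drive ATP synthesis by complex V. Most subunits are encoded in the nucleus and imported, and a few hydrophobic ones are encoded by mitochondrial DNA, which the count table does not list. Quiescent blood stem cells are known to rely less on this chain than the dividing progenitors that arise from them.

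Many genes of the chain are bound near their start by the factors NRF1, GABP (of the ETS family), YY1 and the estrogen-related receptors, which coordinate nuclear and mitochondrial genes. The RefSeq promoter table (GRCm38.p6) held 65 of the 80 members. The 100 bases before the start site are shown for 1 gene of each complex to show how such sites lie. All 5 lie on the minus strand and are printed 5′ to 3′ in the direction of transcription, at chr2:36049339-36049438 (Ndufa8), chr13:74350241-74350340 (Sdha), chr10:80406822-80406921 (Uqcr11), chr7:30626115-30626214 (Cox6b1) and chr5:108434400-108434499 (Atp5k). Capitals mark matches to the NRF1 motif GCGCANGCG or the ETS motif CCGGAAG on either strand.
Ndufa8: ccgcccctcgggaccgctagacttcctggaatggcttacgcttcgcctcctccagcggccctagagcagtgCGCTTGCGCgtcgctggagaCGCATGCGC
Sdha: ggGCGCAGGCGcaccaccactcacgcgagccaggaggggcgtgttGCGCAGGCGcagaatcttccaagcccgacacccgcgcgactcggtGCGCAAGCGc
Uqcr11: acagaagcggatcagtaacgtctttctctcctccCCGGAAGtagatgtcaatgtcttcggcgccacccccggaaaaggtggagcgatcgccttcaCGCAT
Cox6b1: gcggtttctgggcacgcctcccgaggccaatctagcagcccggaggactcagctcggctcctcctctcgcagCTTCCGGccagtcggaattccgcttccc
Atp5k: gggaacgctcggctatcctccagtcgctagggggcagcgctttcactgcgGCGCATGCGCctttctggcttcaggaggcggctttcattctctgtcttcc

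Ndufa8 and Sdha held only NRF1 matches in this stretch, 2 and 3 of them. Cox6b1 held only an ETS match. Uqcr11 held an ETS match and, at the end, the first bases of an NRF1 match that runs on past the start site. In Atp5k the NRF1 match reads the same on both strands.

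From 250 bases before to 50 after the start, 19 of the 65 member promoters held the NRF1 motif (29.2%), against 14.8% of the promoters of tested genes and 7.03% of all promoters in the table. The ETS motif was in 16 (24.6%, against 19.9% of tested genes), the YY1 motif AAGATGGCG in 7 (10.8%, against 3.54%) and the estrogen-related receptor motif AAGGTCA in 7 (10.8%, against 3.97%). The GC box GGGCGG was in 27 (41.5%, against 67.0%) and the TATA box TATAAA in 5 (7.69%, against 8.82%). Both strands were searched, a gene was counted once per motif, and none of the 6 motifs contains another. By complex, the NRF1 motif was in 7 of 31 promoters of complex I, 2 of 3 of complex II, 2 of 5 of complex III, 1 of 11 of complex IV and 7 of 15 of complex V. These matches describe the letters only.

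Library totals ran from 20582057 to 25315596 counts, and 15138 to 15529 genes had a count. A count of 3, taken as the limit of detection, was worth 0.116 to 0.153 CPM (a gene's counts relative to the library total, adjusted with TMM factors). Both sort markers were present in every library: Kit at 365 to 581 CPM and Ly6a, which encodes Sca-1, at 40.0 to 69.2 CPM. The 12 markers of granulocyte-monocyte progenitors summed to 12000 to 15320 CPM with vehicle and to 4920, 8813 and 3217 with TP-3654, and 9 of the 12 were lower at an unadjusted p under 0.05. Over all genes 6.84% were lower and 10.2% higher at that threshold, and the marker counts of this paragraph stand beside these shares. Of the lymphoid, megakaryocyte and mature neutrophil markers below, 6, 6 and 7 were tested. The 12 stem cell markers summed to 353.9 to 463.2 CPM with vehicle and 666.4 to 732.6 with TP-3654 (8 higher), and the 10 markers of mitosis to 2381 to 2515 and 1752 to 2303 (4 lower). The 7 mast cell and basophil markers summed to 360.6 to 437.1 CPM with vehicle and to 318.3, 436.0 and 107.4 with TP-3654 (3 lower), and the 10 lymphoid ones to 186.5 to 322.8 and 412.1 to 494.4 (2 higher). The 8 megakaryocyte markers summed to 305.5 to 355.0 and 329.6 to 375.4 CPM (1 higher), the 10 listed erythroid ones to 662.7 to 1283 and 635.7 to 1366 and the 9 of mature neutrophils to 39.09 to 170.7 and 16.61 to 62.12, with none of the last 2 lists passing an unadjusted p of 0.05. In TP-3654 replicate 3, Klf1 was at 5.88 CPM and Epor at 5.47, against 46.3 to 97.7 and 25.2 to 43.0 in the other 5 libraries. The erythroid list did not move as one in that library. Its globin genes Hba-a1 and Hbb-bt were there at 332 and 205 CPM, above the vehicle libraries (94.1 to 249 and 57.4 to 130). Camp and Ngp, of neutrophils, were at 0 in vehicle replicates 2 and 3, and the T cell gene Cd3e was at 0 in 5 of 6 libraries. In bulk samples fewer cells of a type and less RNA per cell cannot be told apart, and the part of these marker differences in the results below was not tested.

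TP-3654 replicate 3 stood apart from the other 5 libraries. The ratio of its members to the vehicle mean had an SD of 0.494 (log2) over the 80 genes, against 0.214 and 0.170 in TP-3654 replicates 1 and 2 and 0.0874 to 0.101 in the vehicle libraries. The vehicle libraries are part of that mean, which narrows their SDs. Members whose transcripts share sequence with other annotated loci were higher in it than the rest, as described further on, and cytosolic ribosomal protein genes, many of which have pseudogene copies, had a median of 1.26 (log2 to the vehicle mean) in this library against -0.149 to 0.150 in the other 5. The counts and medians over all members and by complex, and the log2 fold changes of the members described, are given with and without it.

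The summed level of the 80 members was lower in the TP-3654 libraries, and no single member passed the test after adjustment. The members summed to 11950, 13250 and 13510 CPM in vehicle replicates 1 to 3 and 11740, 11110 and 10220 CPM in TP-3654 replicates 1 to 3. The groups did not overlap, though vehicle replicate 1 and TP-3654 replicate 1 lay close together, and the sums of complexes II and V did overlap. Of the 80, 67 had a log2 fold change below 0, and the median was -0.24 (15.1% lower), against 0.01 over all 13149 tested genes. No member passed an adjusted p of 0.05 in edgeR's quasi-likelihood test, where 0.00% of all genes passed. At an unadjusted p under 0.05, 19 members were lower, against 6.84% of all genes, and 1 was higher, against 10.2% of all genes. In 37 members (46.2%) every TP-3654 library was below every vehicle library, which held for 11.6% of all genes, and no member had every TP-3654 library above, which held for 14.3%. DESeq2 called 1 member, Ndufa1, as lower (adjusted p = 0.0426), against 1.92% of all genes called lower, and limma-voom called 0. With each library corrected for its trend on transcript length, the median was -0.12 and 0 members were lower at an unadjusted p under 0.05. Of the 12572 genes in that fit, 8.81% were lower.

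Without TP-3654 replicate 3, 77 of 80 members had a log2 fold change below 0, with a median of -0.19, against 0.00208 over all genes. The 3 exceptions were Cox6a2, Cox4i2 and Cox7a1. In that fit 16 members were lower at an unadjusted p under 0.05 (5.27% of all genes) and 0 at an adjusted one (0.232% of all genes). The count of 19 depended on single libraries. It was 6 when vehicle replicate 3 was left out (against 5.31% of all genes), 8 when vehicle replicate 2 was (5.35%) and 28 when TP-3654 replicate 1 was (6.38%).

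**Figure D1:**
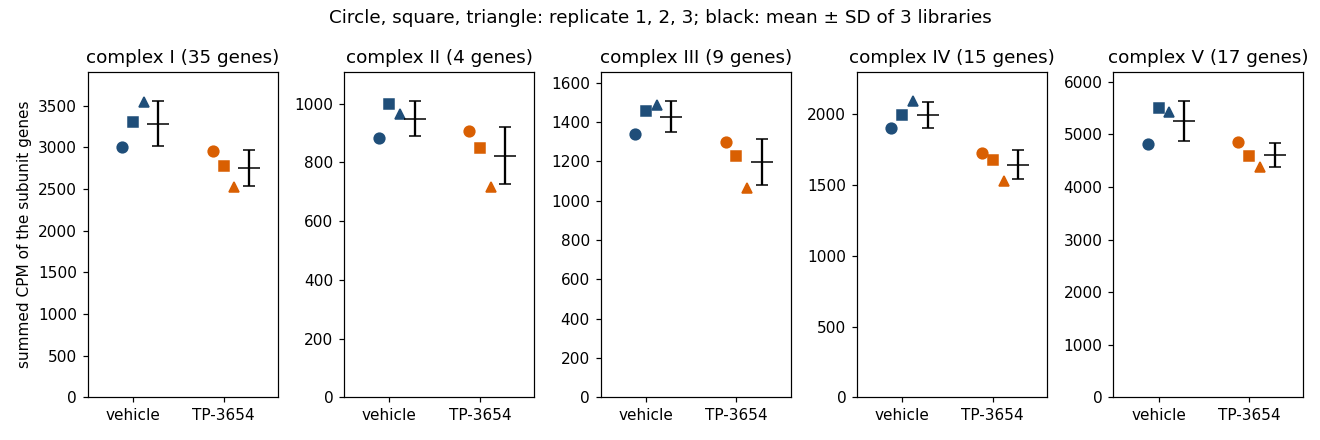
Summed expression (in CPM, axis from 0) of the subunit genes of each complex in the 3 vehicle and 3 TP-3654 libraries, with the group mean ± SD in black. In complexes I, III and IV all TP-3654 libraries lie below all vehicle libraries, and in complexes II and V vehicle replicate 1 lies below TP-3654 replicate 1.

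**Figure D2:**
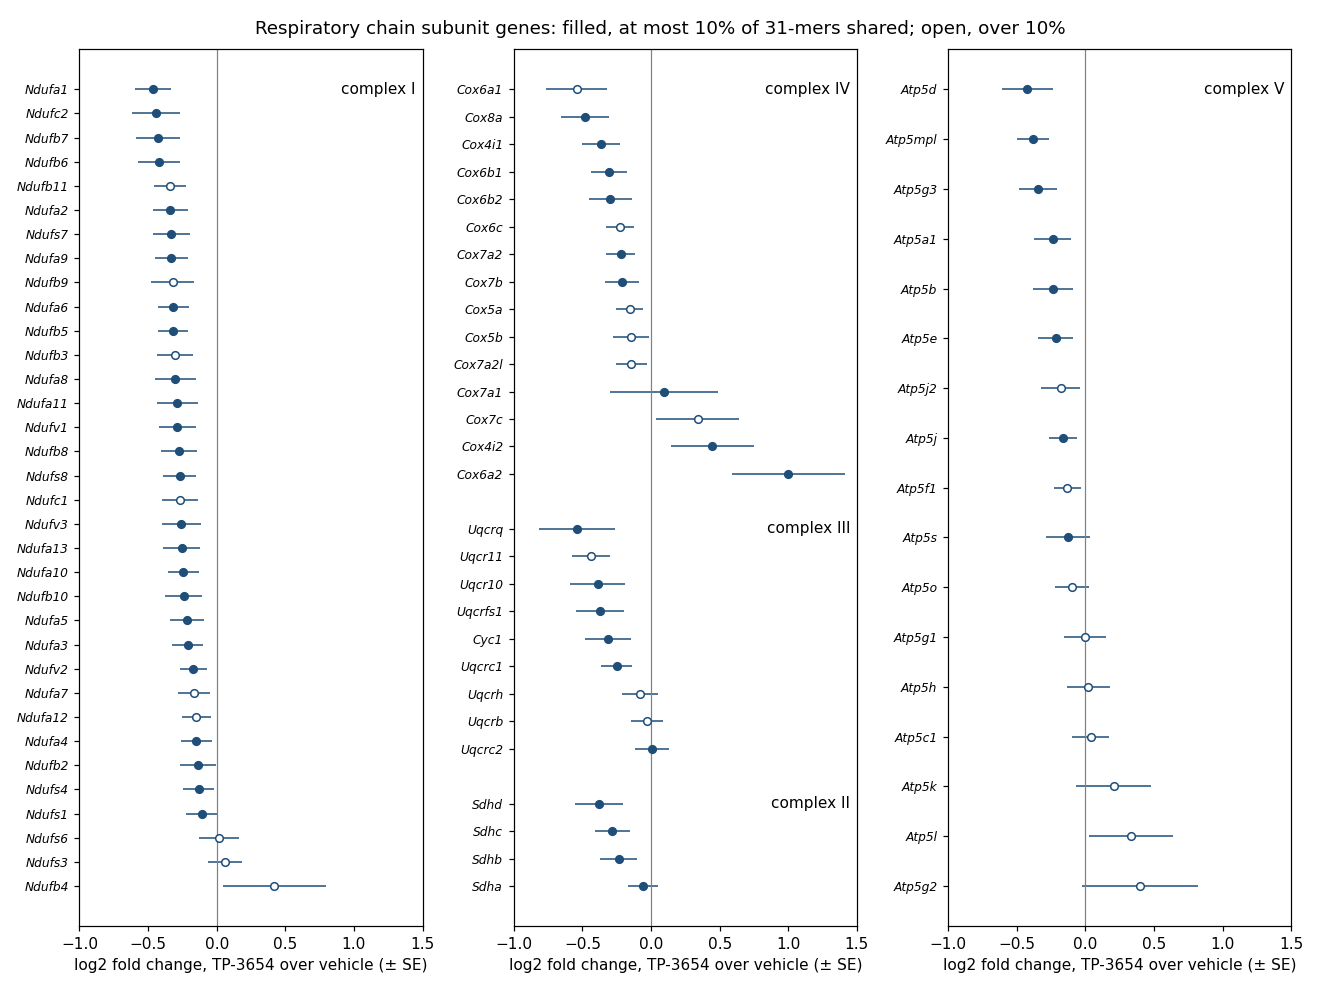
Log2 fold change of 79 of the 80 members (x axis, TP-3654 over vehicle, ± SE from edgeR), by complex and in order of size. Filled points are members with at most 10% of their transcript sequence shared with other loci, of which 48 of 52 lie below 0, and open points are the others, of which 18 of 27 do.

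Complex I, NADH dehydrogenase, had 32 of 35 members below 0, with a median log2 fold change of -0.27, and 11 lower at an unadjusted p under 0.05 (31.4%, against 6.84% of all genes). Its summed level was 3005, 3301 and 3544 CPM with vehicle (3283 ± 270, mean ± SD, n = 3) and 2963, 2780 and 2528 with TP-3654 (2757 ± 218, n = 3), so the groups did not overlap, by a small margin. Without TP-3654 replicate 3 the median was -0.20, with 35 of 35 below 0 and 8 lower, against 5.27% of all genes. The 27 accessory subunits, which surround the catalytic core and help to build and stabilise it, had a median of -0.28 with 10 of the 11 lower genes (37.0% of the 27). The 7 subunits of the flavin and iron-sulfur core that oxidise NADH and carry its electrons had a median of -0.23, with 1 (14.3%). Leaving out that library put these medians at -0.19, with 8 lower, and -0.21, with 0.

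Ndufa1 (chromosome X, 37187588 to 37191238 in GRCm38), an accessory subunit of the membrane arm, had the smallest p among all members. It was at 47.4, 55.0 and 55.3 CPM in vehicle replicates 1 to 3 and 41.4, 39.4 and 33.3 in TP-3654 replicates 1 to 3 (edgeR log2 fold change -0.47, SE 0.13, unadjusted p = 0.00592, adjusted p = 0.148, and -0.39 without TP-3654 replicate 3). All 3 TP-3654 libraries lay below all vehicle libraries. Ndufb5, also of the membrane arm, was at 87.4, 99.4 and 97.3 CPM with vehicle and at 80.9, 76.8 and 70.5 with TP-3654 (edgeR log2 fold change -0.32, SE 0.11, unadjusted p = 0.0169, adjusted p = 0.204, and -0.27 without TP-3654 replicate 3). Ndufb11, a further subunit of that arm, was at 120, 115 and 137 CPM with vehicle and at 98.4, 107 and 89.0 with TP-3654 (edgeR log2 fold change -0.34, SE 0.12, unadjusted p = 0.0169, adjusted p = 0.204, and -0.29 without TP-3654 replicate 3). In both the groups did not overlap. Ndufa6, an LYR-motif protein bound near the coenzyme Q site, was at 88.1, 83.6 and 86.3 CPM with vehicle and at 74.2, 72.0 and 60.8 with TP-3654 (edgeR log2 fold change -0.32, SE 0.11, unadjusted p = 0.0197, adjusted p = 0.215, and -0.24 without TP-3654 replicate 3), again with no overlap.

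Of the core, Ndufs7, which holds the last iron-sulfur cluster before coenzyme Q, was at 92.6, 96.8 and 108 CPM with vehicle and at 84.3, 86.9 and 65.2 with TP-3654 (edgeR log2 fold change -0.33, SE 0.13, unadjusted p = 0.0346, adjusted p = 0.260, and -0.22 without TP-3654 replicate 3). Its groups did not overlap, and without TP-3654 replicate 3 its unadjusted p was 0.0722 in edgeR. Ndufv1, the flavin subunit that binds NADH, was at 158, 185 and 201 CPM with vehicle and at 168, 148 and 130 with TP-3654, where TP-3654 replicate 1 lay above vehicle replicate 1 (a difference of -0.29 on the log2 scale, SE 0.13, and -0.21 without TP-3654 replicate 3). Log2 fold changes of further core subunits were -0.27 (SE 0.12, and -0.21 without TP-3654 replicate 3) for Ndufs8, -0.17 (SE 0.10, and -0.18 without TP-3654 replicate 3) for Ndufv2 and -0.11 (SE 0.12, and -0.05 without TP-3654 replicate 3) for Ndufs1, none of which passed an unadjusted p of 0.05. In Ndufs8 and Ndufv2 the groups did not overlap. Ndufs3, another core subunit, was at 60.0, 63.7 and 68.8 CPM with vehicle and at 67.1, 58.6 and 75.1 with TP-3654, so that TP-3654 replicate 3 was the highest of the 6 libraries (a difference of 0.06 on the log2 scale, SE 0.12, and -0.04 without TP-3654 replicate 3).

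The 3 members of complex I with a fold change above 0 were Ndufs3, Ndufs6 and Ndufb4. Ndufb4, an accessory subunit of the membrane arm, was at 18.4, 22.0 and 20.9 CPM with vehicle and at 18.4, 18.1 and 45.7 with TP-3654. Its value in TP-3654 replicate 3 was above those of the other 5 libraries, and without it the log2 fold change was -0.17 in place of 0.42. A near copy of it, Ndufb4c, had 752, 768 and 734 counts with vehicle and 701, 819 and 489 with TP-3654. Values of near copies are uncertain, since reads may be split between them. Ndufa4, named for complex I but found in complex IV, was at 157, 169 and 178 CPM with vehicle and at 157, 135 and 162 with TP-3654 (a difference of -0.15 on the log2 scale, SE 0.11, and -0.21 without TP-3654 replicate 3), with overlapping groups.

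Complex II, succinate dehydrogenase, is also an enzyme of the citric acid cycle and has no subunit encoded in mitochondrial DNA. All 4 genes had a fold change below 0, with a median of -0.26 (-0.17 without TP-3654 replicate 3), and none passed an unadjusted p of 0.05, with or without that library. The summed level was 881.5, 997.0 and 964.3 CPM with vehicle (948 ± 59.6, n = 3) and 905.5, 847.1 and 716.4 with TP-3654 (823 ± 96.8, n = 3). The median was -0.33 for the 2 membrane anchors and -0.15 for the 2 subunits of the head that oxidises succinate, and -0.20 and -0.10 without TP-3654 replicate 3. Sdhd, an anchor (chromosome 9, 50596340 to 50603849), was at 241, 274 and 249 CPM with vehicle and at 228, 218 and 141 with TP-3654 (edgeR log2 fold change -0.38, SE 0.18, unadjusted p = 0.0602, adjusted p = 0.310, and -0.20 without TP-3654 replicate 3), and Sdhc, the other, at 137, 150 and 165 CPM with vehicle and at 137, 129 and 106 with TP-3654 (edgeR log2 fold change -0.28, SE 0.13, unadjusted p = 0.0544, adjusted p = 0.301, and -0.19 without TP-3654 replicate 3). In both anchors the groups did not overlap, in Sdhc by a narrow margin. Sdhb, the iron-sulfur subunit, was at 135, 154 and 168 CPM with vehicle and at 148, 129 and 112 with TP-3654 (a difference of -0.24 on the log2 scale, SE 0.13, and -0.15 without TP-3654 replicate 3). Sdha, the flavin subunit, was at 367, 418 and 383 CPM with vehicle and at 393, 371 and 358 with TP-3654 (a difference of -0.06 on the log2 scale, SE 0.11, and -0.04 without TP-3654 replicate 3). In both the groups overlapped. The difference between anchors and head was not tested.

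Complex III, which passes electrons from coenzyme Q to cytochrome c, had 8 of 9 members below 0 and a median of -0.31 (-0.19 without TP-3654 replicate 3). At an unadjusted p under 0.05, 1 member was lower (11.1%, against 6.84% of all genes), or 2 without that library (against 5.27%). The summed level of the complex was 1339, 1458 and 1484 CPM with vehicle (1427 ± 77.3, n = 3) and 1296, 1226 and 1066 with TP-3654 (1196 ± 118, n = 3), and the groups did not overlap. That member was Uqcr11, a small subunit (chromosome 10, 80402997 to 80406821). It was at 102, 109 and 115 CPM with vehicle and at 87.5, 88.0 and 64.8 with TP-3654 (edgeR log2 fold change -0.44, SE 0.14, unadjusted p = 0.0102, adjusted p = 0.176, and -0.32 without TP-3654 replicate 3), with no overlap.

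Of the redox and core subunits, Uqcrfs1, the Rieske iron-sulfur protein, was at 163, 163 and 159 CPM with vehicle and at 149, 136 and 89.7 with TP-3654 (edgeR log2 fold change -0.37, SE 0.17, unadjusted p = 0.0625, adjusted p = 0.314, and -0.19 without TP-3654 replicate 3). Uqcrc1, a core protein on the matrix side, was at 251, 278 and 289 CPM with vehicle and at 236, 241 and 209 with TP-3654 (edgeR log2 fold change -0.25, SE 0.11, unadjusted p = 0.0520, adjusted p = 0.298, and -0.20 without TP-3654 replicate 3). Neither had overlapping groups. Cyc1, which carries the heme of cytochrome c1, was at 203, 239 and 235 CPM with vehicle and at 213, 196 and 136 with TP-3654 (a difference of -0.31 on the log2 scale, SE 0.17, and -0.15 without TP-3654 replicate 3), where TP-3654 replicate 1 lay above vehicle replicate 1. Uqcrc2, the partner of Uqcrc1, was at 158, 169 and 151 CPM with vehicle and at 152, 144 and 185 with TP-3654 (a difference of 0.01 on the log2 scale, SE 0.12, and -0.12 without TP-3654 replicate 3), and TP-3654 replicate 3 was its highest library.

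The small subunits ranged from Uqcrq at -0.54 (SE 0.28, and -0.27 without TP-3654 replicate 3) to Uqcrb at -0.03 (SE 0.12, and -0.13 without TP-3654 replicate 3). Uqcrq was at 113, 132 and 134 CPM with vehicle and at 103, 108 and 50.5 with TP-3654 (unadjusted p = 0.0947 in edgeR). Its value in TP-3654 replicate 3 was far below the other 5, and the unadjusted p was 0.0373 without that library. Uqcr10 was at 111, 130 and 133 CPM with vehicle and at 118, 102 and 65.7 with TP-3654 (a difference of -0.39 on the log2 scale, SE 0.20, and -0.19 without TP-3654 replicate 3) and overlapped, since TP-3654 replicate 1 exceeded vehicle replicate 1.

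Complex IV, cytochrome c oxidase, had 11 of 15 members below 0 and a median of -0.21 (-0.20 without TP-3654 replicate 3). At an unadjusted p under 0.05, 4 members were lower (26.7%, against 6.84% of all genes) and 1 higher (against 10.2%). Without that library 5 were lower, against 5.27% of all genes, and 1 higher. The summed level of the complex was 1899, 1993 and 2087 CPM with vehicle (1993 ± 93.7, n = 3) and 1726, 1674 and 1525 with TP-3654 (1642 ± 105, n = 3), and the groups did not overlap. The 10 isoforms found in most tissues had a median of -0.22 and held all 4 lower genes. The 4 isoforms of heart and muscle, lung or testis had a median of 0.27, with 1 of 4 below 0. Without TP-3654 replicate 3 these medians were -0.24 and 0.15.

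Cox8a, a small membrane subunit (chromosome 19, 7215158 to 7217616), was at 250, 256 and 243 CPM with vehicle and at 205, 203 and 127 with TP-3654 (edgeR log2 fold change -0.48, SE 0.18, unadjusted p = 0.0222, adjusted p = 0.226, and -0.30 without TP-3654 replicate 3). Cox4i1, the regulatory subunit that binds ATP, was at 387, 421 and 450 CPM with vehicle and at 360, 347 and 269 with TP-3654 (edgeR log2 fold change -0.37, SE 0.14, unadjusted p = 0.0260, adjusted p = 0.238, and -0.26 without TP-3654 replicate 3). Cox6b1, on the cytochrome c side, was at 180, 205 and 215 CPM with vehicle and at 179, 166 and 139 with TP-3654 (edgeR log2 fold change -0.31, SE 0.13, unadjusted p = 0.0397, adjusted p = 0.272, and -0.22 without TP-3654 replicate 3). In all 3 genes every TP-3654 library was below every vehicle library, and Cox6b1 had an unadjusted p of 0.0886 in edgeR without TP-3654 replicate 3. Cox6a1, the common form of subunit VIa, was at 186, 201 and 208 CPM with vehicle and at 164, 158 and 86.9 with TP-3654 (edgeR log2 fold change -0.54, SE 0.22, unadjusted p = 0.0419, adjusted p = 0.277, and -0.31 without TP-3654 replicate 3). Its groups did not overlap either. Cox5a and Cox5b, which face the matrix, had log2 fold changes of -0.15 (SE 0.10, and -0.21 without TP-3654 replicate 3) and -0.14 (SE 0.13, and -0.29 without TP-3654 replicate 3). Cox5a was at 121, 124 and 127 CPM with vehicle and at 109, 108 and 118 with TP-3654, and Cox5b at 86.0, 92.2 and 95.7 CPM with vehicle and at 77.5, 73.0 and 97.4 with TP-3654. Of these 2 the groups overlapped in Cox5b, through TP-3654 replicate 3.

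Per length of transcript the tissue isoforms were below their common partners: 5.11 CPM per kilobase for Cox6a2 against 293 for Cox6a1, 4.0 for Cox4i2 against 493 for Cox4i1, 1.52 for Cox7a1 against 162 for Cox7a2 and 87.4 for Cox6b2 against 372 for Cox6b1. Cox6a2, the form of heart and skeletal muscle, was at 2.44, 1.49 and 3.02 CPM with vehicle and at 6.89, 4.41 and 2.61 with TP-3654 (edgeR log2 fold change 1.0, SE 0.41, unadjusted p = 0.0369, adjusted p = 0.265, and 1.27 without TP-3654 replicate 3). It was high in TP-3654 replicates 1 and 2 and within the vehicle range in replicate 3, so the groups overlapped. Cox4i2, known as an oxygen-responsive form of lung, was at 2.01, 2.66 and 2.75 CPM with vehicle and at 2.59, 3.52 and 3.99 with TP-3654 (a difference of 0.45 on the log2 scale, SE 0.30, and 0.30 without TP-3654 replicate 3). Cox7a1, another muscle form, was at 0.749, 0.540 and 0.642 CPM with vehicle and at 0.648, 0.658 and 0.767 with TP-3654 (a difference of 0.10 on the log2 scale, SE 0.39, and 0.01 without TP-3654 replicate 3). In both the groups overlapped. Cox6b2, the testis form, was at 46.7, 37.3 and 41.6 CPM with vehicle and at 38.2, 36.2 and 27.9 with TP-3654 (a difference of -0.30 on the log2 scale, SE 0.16, and -0.18 without TP-3654 replicate 3). Cox7a2l, a factor that joins complexes III and IV into supercomplexes and is no structural subunit, was at 225, 205 and 250 CPM with vehicle and at 193, 210 and 213 with TP-3654 (a difference of -0.14 on the log2 scale, SE 0.11, and -0.18 without TP-3654 replicate 3). The count table lists no Cox7b2, Cox8b, Cox8c or Ndufa4l2.

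Complex V, ATP synthase, had 12 of 17 members below 0 and a median of -0.13, the smallest difference of the 5 complexes in this fit, with 3 members lower at an unadjusted p under 0.05 (17.6%, against 6.84% of all genes). Without TP-3654 replicate 3 the median was -0.18, 17 of 17 were below 0 and 1 was lower, against 5.27% of all genes. Its summed level was 4825, 5502 and 5434 CPM with vehicle (5254 ± 373, n = 3) and 4850, 4582 and 4385 with TP-3654 (4606 ± 234, n = 3), where TP-3654 replicate 1 lay just above vehicle replicate 1. Whether complex V differs from the others was not tested.

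In the F1 head, which makes ATP, the catalytic beta subunit Atp5b (chromosome 10, 128083307 to 128090388) was at 1530, 1834 and 1764 CPM with vehicle and at 1621, 1499 and 1234 with TP-3654 (a difference of -0.24 on the log2 scale, SE 0.14, and -0.14 without TP-3654 replicate 3). The alpha subunit Atp5a1 was at 1322, 1536 and 1446 CPM with vehicle and at 1340, 1248 and 1062 with TP-3654 (a difference of -0.24 on the log2 scale, SE 0.13, and -0.16 without TP-3654 replicate 3). In both, vehicle replicate 1 lay below TP-3654 replicate 1. The gamma subunit Atp5c1, the rotating shaft, was at 213, 234 and 234 CPM with vehicle and at 215, 206 and 278 with TP-3654 (a difference of 0.04 on the log2 scale, SE 0.13, and -0.12 without TP-3654 replicate 3). The delta subunit Atp5d was at 267, 283 and 319 CPM with vehicle and at 247, 249 and 153 with TP-3654 (edgeR log2 fold change -0.42, SE 0.19, unadjusted p = 0.0490, adjusted p = 0.290, and -0.24 without TP-3654 replicate 3), with no overlap, and without that library its unadjusted p was 0.0679 in edgeR.

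The 3 genes for the c subunit encode the same mature protein of the membrane rotor behind different import signals. Atp5g3 (chromosome 2, 73908447 to 73912464) was at 249, 265 and 249 CPM with vehicle and at 226, 213 and 162 with TP-3654 (edgeR log2 fold change -0.34, SE 0.14, unadjusted p = 0.0323, adjusted p = 0.255, and -0.22 without TP-3654 replicate 3), with every TP-3654 library below every vehicle library. Atp5g1 was at 102, 114 and 103 CPM with vehicle and at 94.4, 90.8 and 133 with TP-3654 (a difference of -0.01 on the log2 scale, SE 0.15, and -0.21 without TP-3654 replicate 3). Atp5g2 was at 103, 111 and 119 CPM with vehicle and at 96.8, 93.6 and 249 with TP-3654 (a difference of 0.40 on the log2 scale, SE 0.42, and -0.23 without TP-3654 replicate 3). In the last 2, TP-3654 replicates 1 and 2 were below all vehicle libraries and replicate 3 above them. Without replicate 3 the unadjusted p of Atp5g3 was 0.0567 in edgeR. Atp5mpl, a small membrane subunit, had the smallest p of the complex, at 110, 121 and 117 CPM with vehicle and at 94.0, 95.7 and 76.8 with TP-3654 (edgeR log2 fold change -0.38, SE 0.12, unadjusted p = 0.00942, adjusted p = 0.173, and -0.30 without TP-3654 replicate 3), with no overlap.

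Compared per kilobase of transcript (mean CPM over the 6 libraries divided by the median length of a gene's coding transcripts), the median level was 102 for complex I and 127, 152, 162 and 189 for complexes II to V. Within complexes the spread was wider. Complex I ran from 11.4 (Ndufb2) to 348 (Ndufa4), complex II from 69.0 (Sdhc) to 183 (Sdhd) and complex III from 84.2 (Uqcrc2) to 349 (Uqcrh). Complex IV ran from 1.52 (Cox7a1) to 493 (Cox4i1), and complex V from 10.4 (Atp5s, a coupling factor homologue) to 825 (Atp5b), with Atp5a1 at 515. The 2 most abundant transcripts per length thus encode the alpha and beta subunits, each present in several copies per enzyme. The length is uncertain where annotated forms differ: coding transcripts of Ndufb2 run from 455 to 4371 bases and those of Atp5g1 from 596 to 4715.

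TP-3654 replicate 3 separated the members by how much of their sequence is found elsewhere. For each member, all 31-base words of its transcripts were looked up in the transcripts of every other annotated locus of GRCm38. Of the 80, 53 shared at most 10% of these words and 27 more than 10%. In TP-3654 replicate 3 the median log2 ratio to the vehicle mean was -0.45 for the first set and -0.0157 for the second. The same medians were -0.142 and -0.153 in TP-3654 replicate 1 and -0.231 and -0.204 in replicate 2. Across the 80 genes, the share of common words and the ratio had a Pearson r of 0.598 and a Spearman rho of 0.438 in replicate 3. In the other 5 libraries r lay between -0.034 and 0.0407. These correlations are across genes of single libraries, which share depth and preparation, and are given as a description.

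The members highest in TP-3654 replicate 3 included Atp5g2 (87.7% shared), Ndufb4 (38.3%), Cox7c (25.2%), Atp5l (69.7%) and Atp5k (18.9%). Atp5l, subunit g of ATP synthase, was at 57.5, 61.0 and 61.4 CPM with vehicle and at 55.8, 53.7 and 117 with TP-3654. Atp5k, subunit e, was at 32.8, 36.2 and 42.7 CPM with vehicle and at 34.3, 31.2 and 63.6 with TP-3654, and Cox7c, a small subunit of complex IV, at 53.1, 60.2 and 58.1 CPM with vehicle and at 51.6, 54.0 and 111 with TP-3654. In these 5 genes TP-3654 replicate 3 was above every other library. Exceptions ran both ways: Cox6a1 shared 23.8% and was low in this library, and Uqcrc2 shared 0% and was high.

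By set, 49 of the 53 members with little shared sequence had a fold change below 0 (median -0.27), and 18 of the other 27 (median -0.13). At an unadjusted p under 0.05, 15 (28.3%) and 4 (14.8%) were lower, against 6.84% of all genes. In complex V the medians were -0.24 for 8 genes and 0.02 for 9. Without TP-3654 replicate 3 the counts of lower genes were 12 and 4, against 5.27% of all genes. How reads that match several loci were counted is not stated, and its part in these values was not tested.

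**Figure D3:**
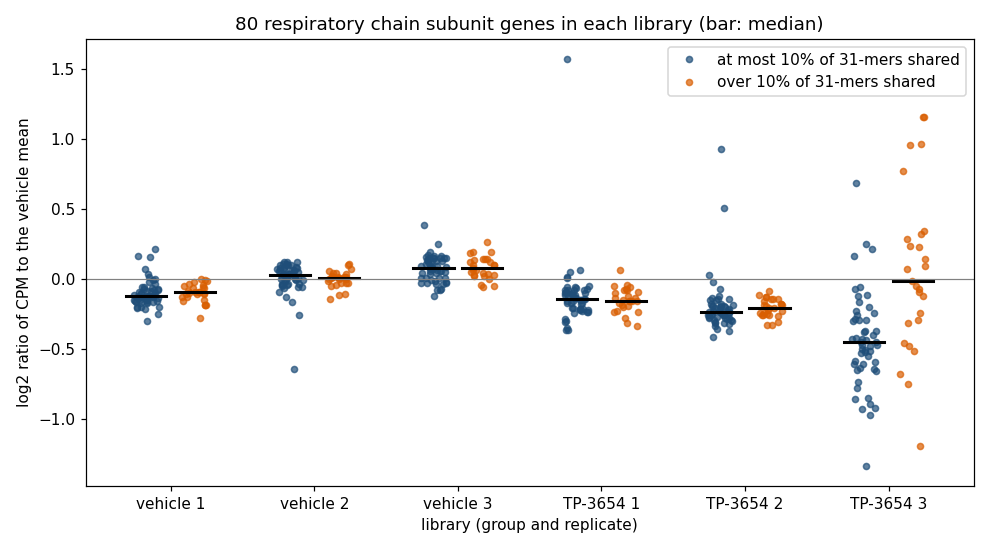
Log2 ratio of each member's CPM to its vehicle mean (y axis) in each of the 6 libraries (x axis), with members split at 10% shared sequence and bars at the medians. The 2 sets lie together in 5 libraries and apart in TP-3654 replicate 3, at medians of -0.45 and -0.0157.

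**Figure D4:**
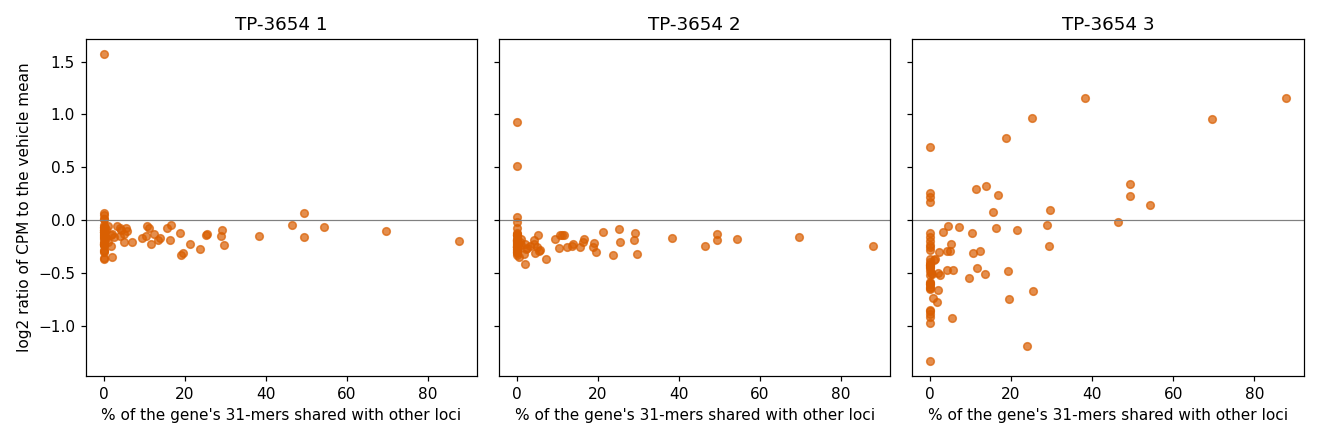
Log2 ratio of each member's CPM to its vehicle mean (y axis) against the percentage of its 31-base words found in other loci (x axis), for the 3 TP-3654 libraries. The points are level in replicates 1 and 2 and climb with sharing in replicate 3 (Pearson r = 0.598 over 80 genes).

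The authors' deposited table gives the same comparison with values that the deposited counts do not return. The ratio of its mean normalized count to that from DESeq2 on the deposited counts ran from 0.638 to 1.5 over the members, with a median of 0.86, and 5 of 80 lay within 1% of that median. A single scaling factor would have put them all there. By the authors' deposited table, 78 of 80 members had a log2 fold change below 0, all but Cox6a2 and Cox4i2, with a median of -0.24 against -0.02 over all its genes. It lists 4 members with an adjusted p under 0.05, all lower, against 5.32% of its genes: Ndufb2 (-0.44, adjusted p = 0.0103 by the authors' DESeq2), Ndufa6 (-0.28, 0.0165), Cox4i1 (-0.31, 0.0231) and Ndufb11 (-0.34, 0.0459). On the deposited counts Ndufb2, with 3.2% shared sequence, was at -0.14 in edgeR (SE 0.13, unadjusted p = 0.327), with overlapping groups. Leaving out TP-3654 replicate 3 gave -0.16, and DESeq2 on the 6 libraries gave -0.15 (adjusted p = 0.638).

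The members with shared sequence differed between the 2 sources. Of the 27 with more than 10% shared, all 27 were below 0 in the authors' deposited table (median -0.24, from -0.38 to -0.13), and 18 were in DESeq2 on the deposited counts (median -0.14). Of the 53 with less, 51 and 50 were below 0. By complex, medians in the authors' deposited table were -0.26, -0.23, -0.23, -0.25 and -0.25 for complexes I to V, so that complex V was level with the rest there. Both sources describe the same comparison and are no independent evidence of each other.

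The subunit genes are short, and over all tested genes the median fold change was larger the longer the transcript. The median transcript of a member was 743.5 bases (321 to 2900), against 2652 for tested genes with a length. Over all genes the median log2 fold change was -0.15 for transcripts up to 1000 bases, -0.09 from 1001 to 2000, -0.02 from 2001 to 3000, 0.08 from 3001 to 5000 and 0.20 above 5000. All 3 TP-3654 libraries had this slope and vehicle replicates 1 and 2 a weaker one, while vehicle replicate 3 had the opposite one, from 0.0969 for the shortest to -0.138 for the longest. The vehicle libraries are set against their own mean, so their slopes offset each other and are not separate observations. Among transcripts up to 1000 bases, 53 members had a median of -0.26 and the other 1056 genes -0.14, with 34.0% of the members and 13.6% of the others lower at an unadjusted p under 0.05. From 1001 to 2000 bases, 21 members had a median of -0.24 and the others -0.09, with 1 member lower (4.76%, against 9.50%).

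With each library corrected for its trend on length, 60 of 80 members were below 0 at a median of -0.12, against -0.02 over all genes. In that fit 0 members were lower at an unadjusted p under 0.05 in edgeR, against 8.81% of all genes. RNA quality values are not among the data used here, and the part of RNA quality or library preparation in the length trend was not tested.

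**Figure D5:**
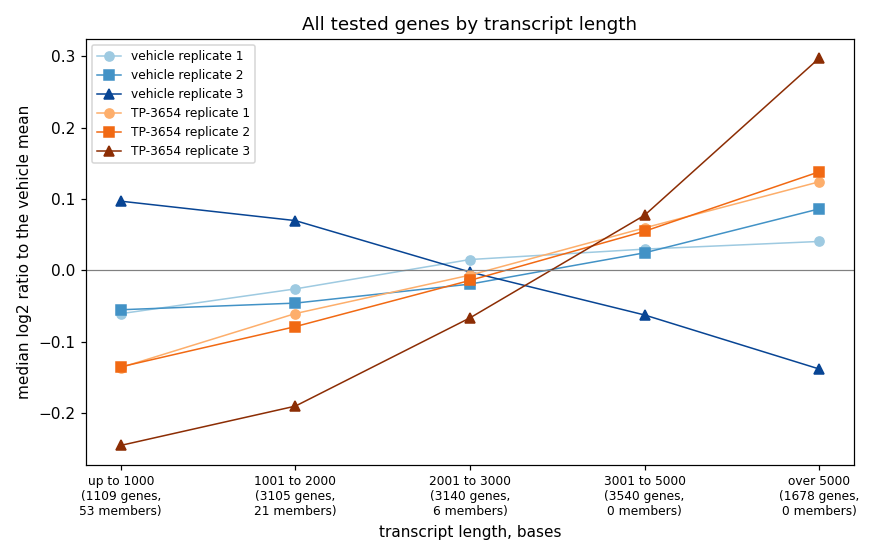
Median log2 ratio of CPM to the vehicle mean (y axis) for all tested genes in 5 classes of transcript length (x axis, with the number of genes and of members), 1 line per library. The TP-3654 libraries climb from short to long transcripts, steepest in replicate 3 (-0.245 to 0.297), vehicle replicates 1 and 2 climb less and vehicle replicate 3 descends.

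Genes that serve the chain without being part of it were read from 7 lists. Their counts of genes lower at an unadjusted p under 0.05 stand beside 6.84% of all genes. Of 20 assembly factors of complex I, 19 were tested, 16 were below 0 and 2 lower (10.5%, median -0.14). These were Ndufaf3 at -0.47 (SE 0.16, and -0.40 without TP-3654 replicate 3) and Dmac1 at -0.42 (SE 0.18, and -0.24 without TP-3654 replicate 3). Of 35 assembly factors of complexes II to V, 32 were tested, 30 were below 0 and 2 lower (6.25%, median -0.16), Cmc2 at -0.45 (SE 0.17, and -0.33 without TP-3654 replicate 3) and Coa6 at -0.64 (SE 0.26, and -0.41 without TP-3654 replicate 3). Of 19 genes for mobile carriers and coenzyme Q synthesis, 13 were below 0 and 2 lower (10.5%, median -0.16): Coq9 at -0.33 (SE 0.14, and -0.24 without TP-3654 replicate 3) and Etfb, of the flavoprotein that feeds electrons from fatty acid oxidation to coenzyme Q. Etfb was at 246, 265 and 332 CPM with vehicle and at 207, 213 and 183 with TP-3654 (edgeR log2 fold change -0.48, SE 0.14, unadjusted p = 0.00612, adjusted p = 0.149, and -0.43 without TP-3654 replicate 3), with no overlap, and DESeq2 gave an adjusted p of 0.0357. With that library left out, the 3 lists had 1, 1 and 2 lower genes, against 5.27% of all genes, and medians of -0.09, -0.09 and -0.08. The lower genes were then Ndufaf3, Cmc2, Etfb and Cycs, for cytochrome c (-0.28), while Dmac1, Coa6 and Coq9 no longer passed. Cycs had 3704 counts in TP-3654 replicate 3 and 1649 to 2078 in the others.

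Of 22 genes of the citric acid cycle and pyruvate dehydrogenase, 20 were below 0 and 1 lower (4.55%, median -0.10), Dlat, a core enzyme of the pyruvate dehydrogenase complex, at -0.30 (SE 0.13, and -0.22 without TP-3654 replicate 3). Of 24 import and prohibitin genes, 16 were below 0 and 1 lower (4.17%, median -0.10), Tomm22, a receptor of the outer membrane, at -0.25 (SE 0.11, and -0.20 without TP-3654 replicate 3). With that library left out, neither of the 2 lists had a lower gene, against 5.27% of all genes. Their medians were then -0.12 (18 of 22 below 0) and -0.14 (21 of 24 below 0). Genes that express mitochondrial DNA had 12 of 19 below 0 (median -0.05), and regulators of mitochondrial biogenesis 7 of 14 (median -0.0063), with none passing in either. Among the regulators, Nrf1, which encodes the factor whose motif is shown above, was at 82.8, 88.3 and 87.3 CPM with vehicle and at 81.6, 78.3 and 68.5 with TP-3654 (a difference of -0.18 on the log2 scale, SE 0.11, and -0.12 without TP-3654 replicate 3), and its groups did not overlap. Pprc1, a coactivator of the PGC-1 family, was at 155, 231 and 174 CPM with vehicle and at 222, 225 and 263 with TP-3654 (a difference of 0.34 on the log2 scale, SE 0.16, and 0.25 without TP-3654 replicate 3), with overlap. No gene of these 7 lists was higher at an unadjusted p under 0.05. The cytosolic ribosomal proteins, taken for comparison, had 17 of 81 below 0, a median of 0.49 and 1 lower gene, with the high values in TP-3654 replicate 3 given above. Without that library 78 of 81 were below 0, with a median of -0.13 and 3 lower, against 5.27% of all genes.

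Motif matches and fold changes can be set beside each other for the 65 members with a promoter entry. Those with an NRF1 match had a median log2 fold change of -0.22 (12 of 19 below 0), and those without one -0.24 (43 of 46 below 0). Without TP-3654 replicate 3 all 19 with a match were below 0. Of the members above 0 in that fit, Cox7a1 held no NRF1 match. Cox6a2 and Cox4i2 had no promoter entry, so a match in them could not be looked for. With and without an ETS match the medians were -0.25 (16 genes) and -0.22 (49), with and without a YY1 match -0.18 (7) and -0.24 (58), and with and without the estrogen-related receptor motif -0.14 (7) and -0.24 (58). Atp5k, Sdha and Ndufa8, whose NRF1 matches are printed above, had log2 fold changes of 0.21, -0.06 and -0.30 (-0.20, -0.04 and -0.17 without TP-3654 replicate 3). The medians by motif are given with that library only. Promoter matches and differences in expression were not tested against each other.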

How the data were processed

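Poly(A)-selected RNA of sorted LSK cells was sequenced in 6 libraries. The authors deposited whole-number read counts per Entrez gene, not normalized. Their second deposited table holds, per the file headers, a mean normalized signal, a log2 fold change, a Wald score and raw and adjusted p-values. The submitters' processing notes name HISAT2 2.1.0, SAMtools 1.9.0, DESeq2 and the builds mm10 and GRCm38. Read counter and strand setting: not given in the sources used here. Overlapping and antisense genes therefore cannot be told apart.

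The members, gene lists and the rule for named genes (the catalytic or core subunits, the 4 smallest p and the highest and lowest level per length in each complex, tissue isoforms, and up to 3 genes per other list) were chosen with earlier results of these data known. The values of 1 member that the rule names are not reported here. Atp5k, Atp5l, Cox7c, Ndufb4, Ndufb4c, Ndufs5, Ndufs6, Ndufab1, Uqcrq and Uqcrb, and Klf1, Epor, Hba-a1, Hbb-bt, Camp, Ngp and Cd3e, were named after their values were seen.

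Counts were tested with edgeR 4.0.16 (R 4.3.3): TMM factors, filterByExpr (2696 genes removed), robust quasi-likelihood F test and Benjamini-Hochberg adjustment over 13149 genes, called under 0.05. The SE divides the size of the log2 fold change by the root of F. Log2 ratios to the vehicle mean used a pseudocount of 0.1 CPM. Alternatives were DESeq2 1.42.0, limma-voom 3.58.1, other scalings and filters, a block, a loess offset on length and leaving out each library. Transcript lengths and 31-base words came from GENCODE vM21.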

Additional observations from a re-analysis of the deposited data

How the results depend on the processing

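The direction of the member median held in every alternative tried, from -0.2912 to -0.1162. Counts of lower members held least: 12 by library totals only and 0 with the length offset (against 8.81% of all genes). The share of all genes by library totals is not given here. A subset can hold no more lower members than the whole, so subset counts are no drop from the count over all members. Of the 27 members with over 10% shared sequence 4 were lower (14.8%, against 6.84% of all genes), and of the 53 others 15 (28.3%). Without TP-3654 replicate 3 these counts were 4 and 12, against 5.27% of all genes. Leaving out 1 library, the count over all members ran from 6 to 28. It was 6 and 8 without vehicle replicates 3 and 2 (against 5.31% and 5.35% of all genes) and 28 without TP-3654 replicate 1 (against 6.38%). DESeq2 called 1 member and edgeR 0. The count of higher members, 1 through Cox6a2, became 0 with limma-voom and with the replicate block. Leaving out 1 library, it ranged from 0 to 1. Cox6a2 had 33 counts in its lowest library and 0% shared sequence. It is therefore not among the members with at least 100 counts or with over 10% shared, and the count of 0 there says nothing about it. With the length offset the medians were -0.1162 for all members, -0.05337 for complex IV and -0.01914 for complex V, and Ndufa4 (0.046), Uqcrh (0.1212), Cox5a (0.01583) and Cox5b (0.01622) reversed. Medians of complex IV without 1 library ran from -0.2241 to -0.1426. Among members with over 10% shared they were -0.07878 for complex III, -0.1494 for complex IV and 0.02224 for complex V, which reversed, and complex V was at -0.2368 among the others. Near 0, Uqcrc2 reversed with relative log expression factors (-0.000504) and DESeq2 (-0.00407), and Atp5g1 with upper-quartile factors (0.01054). Leaving out 1 library at a time, 7 named members crossed 0: Ndufs3 (-0.03906 to 0.1484), Uqcrc2 (-0.1152 to 0.07911), Uqcrh (-0.1728 to 0.0284), Cox7a1 (-0.02638 to 0.2197), Atp5c1 (-0.1169 to 0.1181), Atp5g1 (-0.2112 to 0.09534) and Atp5g2 (-0.2327 to 0.6373). The cause of these shifts was not tested.

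Replicate numbers did not pair the samples: same-numbered libraries had correlations of -0.0117, -0.015 and 0.031 in their deviations from the group means. With the replicate block 0 members were called. At an unadjusted p under 0.05, 16 were lower, against 6.15% of all genes, and 0 higher.

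The sharing splits without TP-3654 replicate 3, and the split at over 10%, were chosen after seeing the data. With 3 libraries a group and 1 that stands apart, no member passed adjustment in edgeR or limma-voom, and the low counts of Cox7a1 give it the widest counting error of the members.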
